A study of Homo sapiens with 12 samples.

Results

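The 42 genes described here take part in a pair of linked stress programs of human cells, the ATF4 program of amino acid supply and tRNA charging and the unfolded protein response of the endoplasmic reticulum (ER). They form a list of named genes, found by symbol in the authors' table of counts and followed in all 4 groups of 3 libraries, and are 42 of the 58288 gene IDs in that table. By role, 9 are regulators or other stress response genes, 8 make amino acids or folate-bound carbon, 14 charge tRNAs or carry them out of the nucleus, and 11 fold or clear proteins in the ER. The first 31 are called the ATF4 arm here and the last 11 the unfolded protein arm.

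In the integrated stress response, kinases that sense missing amino acids, unfolded ER proteins, viral RNA or missing heme phosphorylate the translation factor eIF2alpha, which slows most protein synthesis but lets the mRNA of the transcription factor ATF4 be translated. ATF4 acts mainly through its protein level, and its targets include amino acid transporters, enzymes of serine, asparagine and proline synthesis, and the synthetases that load tRNAs with amino acids. Unfolded proteins in the ER also act through IRE1 with XBP1 and through ATF6, which induce chaperones such as HSPA5 and factors that clear misfolded proteins. FLCN, the gene lowered in these cells, encodes folliculin, a regulator of nutrient signalling at the lysosome and a tumor suppressor of the kidney.

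The cells were HK2, an established line from the proximal tubule of the human kidney. They carried a short hairpin RNA (shRNA) against FLCN or a nontarget shRNA, labelled WT, and were harvested at fewer than 30 passages (short-term) or, by their labels, at more than 120 (long-term). The sources do not give the same passage number for the long-term cells. The cells were clonally selected and no source gives the clone behind each library, so shRNA and clone effects cannot be told apart. The labels call the 3 libraries of a group biological replicates without saying how the cultures were kept apart, so p-values measure the spread between these samples. In bulk samples fewer cells of a type and less RNA per cell cannot be told apart. Library totals were 7279890, 6450077 and 6284233 counts in the short-term nontarget group and 8151168, 6898602 and 5825779 after short-term knockdown. In the long-term groups they were 7376720, 6262665 and 7592062 without and 8991051, 6776525 and 6031734 with knockdown.

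The unit CPM is a count scaled to a common library size with TMM factors, which balance most genes between libraries. A log2 fold change compares 2 groups on a scale where 1 is a doubling, its SE is the standard error, and a gene is called higher or lower where its adjusted p is below 0.05 in the quasi-likelihood test of edgeR. The adjustment is Benjamini-Hochberg's, across the 13959 genes with enough counts. Gene spans in brackets are those of GENCODE release 29 on GRCh38. Of the 42 genes, 40 had enough counts to be tested. Those not tested were NUPR1, a small chromatin protein induced by stress, and ASNS, the asparagine synthetase.

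FLCN (chr17:17212212-17237188) had 12.7, 16.7 and 16.5 CPM in the short-term nontarget libraries, 5.95, 6.58 and 5.66 after short-term knockdown, 9.92, 11.9 and 12.2 in the long-term nontarget libraries and 6.70, 6.31 and 7.97 after long-term knockdown. Every knockdown library lay below every nontarget library of its own time. The fall was called in both comparisons, short-term (log2 fold change −1.29 with an SE of 0.174, edgeR adjusted p = 1.12e-04) and long-term (log2 fold change −0.68 with an SE of 0.173, edgeR adjusted p = 0.00611). FLCN shares 11.9% of its exon bases with AC055811.2 on the same strand, so reads there cannot be assigned by position.

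Most of the markers of differentiated proximal tubule cells named here were scarce. LRP2, the endocytic receptor megalin, and the transcription factor HNF4A had no count in any of the 12 libraries, and CUBN, SLC34A1, AQP1 and ANPEP stayed at or below 0.877 CPM. Higher levels were found for GGT1, an enzyme of glutathione breakdown, and CDH6, a kidney cadherin. GGT1 had 46.5, 41.9 and 37.5 CPM in the short-term nontarget libraries, 57.9, 56.9 and 65.5 after short-term knockdown, 27.9, 35 and 46.1 in the long-term nontarget libraries and 58.2, 60.7 and 77.5 after long-term knockdown. CDH6 had 51.4, 64.7 and 87 CPM in the short-term nontarget libraries, 134, 176 and 96.6 after short-term knockdown, 228, 208 and 295 in the long-term nontarget libraries and 1701, 1742 and 1412 after long-term knockdown. The long-term knockdown libraries were far above the rest in CDH6. Of epithelial markers, over the 12 libraries, PAX8 had 148 to 269, EPCAM had 18.9 to 60.5, KRT8 had 1457 to 2587 and KRT18 572 to 921 CPM. Of 6 markers of other cells, PTPRC (leukocytes) and NPHS1 (podocytes) had no count. The 6 summed to 26.2, 22.3 and 31.6 CPM in the short-term nontarget libraries, 26.6, 25 and 41.2 after short-term knockdown, 24.1, 23.1 and 31.7 in the long-term nontarget libraries and 13.9, 16 and 27.3 after long-term knockdown, most of it the collagen gene COL1A1 at 13.4 to 37.2 CPM.

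Some of these markers moved with knockdown. After long-term knockdown CDH6 rose (log2 fold change 2.73 with an SE of 0.213, edgeR adjusted p = 1.80e-07) and GGT1 rose (log2 fold change 0.84 with an SE of 0.159, edgeR adjusted p = 6.03e-04), while PAX8 fell (log2 fold change −0.61 with an SE of 0.103, edgeR adjusted p = 2.04e-04). EPCAM also fell (log2 fold change −0.58 with an SE of 0.184, edgeR adjusted p = 0.0237), a call lost without replicate 1 or 2 of the long-term nontarget group (adjusted p 0.0702 and 0.0803) and without replicate 1 or 2 of the long-term FLCN knockdown group (0.0783 and 0.0765). PDGFRB, a marker of pericytes at 7.64, 5.27 and 9.32 CPM without and 0.347, 0.440 and 1.19 CPM with long-term knockdown, fell (log2 fold change −3.10 with an SE of 0.389, edgeR adjusted p = 1.00e-05). Short-term CDH6 rose (log2 fold change 1.01 with an SE of 0.213, edgeR adjusted p = 0.00627), as did GGT1 (log2 fold change 0.51 with an SE of 0.159, edgeR adjusted p = 0.0483) and PAX8 (log2 fold change 0.33 with an SE of 0.103, edgeR adjusted p = 0.0490). The short-term GGT1 call was lost without replicate 1, 2 or 3 of the short-term nontarget group (adjusted p 0.0721, 0.131 and 0.181), without replicate 1, 2 or 3 of the short-term FLCN knockdown group (0.0923, 0.0741 and 0.125) and when genes under a mean of 10 CPM were left out (0.0573), and that of PAX8 without replicate 1, 2 or 3 of the short-term nontarget group (adjusted p 0.141, 0.0559 and 0.196), without replicate 1, 2 or 3 of the short-term FLCN knockdown group (0.0777, 0.121 and 0.102), with no filter on low counts (0.0653) and without all 4 libraries numbered 3 (0.0593). The interaction was called for CDH6 (1.72, edgeR adjusted p = 8.45e-04), PAX8 (−0.94, edgeR adjusted p = 2.16e-04), EPCAM (−1.10, edgeR adjusted p = 0.00674), PDGFRB (−2.26, edgeR adjusted p = 0.00893) and KRT18 (−0.54, edgeR adjusted p = 0.0427), the last lost without replicate 2 or 3 of the short-term nontarget group (adjusted p 0.0791 and 0.115), without replicate 3 of the short-term FLCN knockdown group (0.0869), without replicate 1, 2 or 3 of the long-term nontarget group (0.0706, 0.0698 and 0.0623) and without replicate 1 or 2 of the long-term FLCN knockdown group (0.101 and 0.110). The part of these changes in the results below was not tested.

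Markers also moved with long culture. Without knockdown CDH6 rose (log2 fold change 1.85 with an SE of 0.214, edgeR adjusted p = 6.04e-05), PAX8 rose (log2 fold change 0.63 with an SE of 0.103, edgeR adjusted p = 7.55e-04) and KRT18 rose (log2 fold change 0.44 with an SE of 0.120, edgeR adjusted p = 0.0307), the last call lost without replicate 2 or 3 of the short-term nontarget group (adjusted p 0.0929 and 0.148) and without replicate 1, 2 or 3 of the long-term nontarget group (0.0786, 0.0820 and 0.0767). With knockdown CDH6 rose (log2 fold change 3.57 with an SE of 0.222, edgeR adjusted p = 1.60e-08), while EPCAM fell (log2 fold change −1.29 with an SE of 0.181, edgeR adjusted p = 4.06e-05). PAX8 fell there (log2 fold change −0.31 with an SE of 0.103, edgeR adjusted p = 0.0309), a call lost without replicate 2 or 3 of the short-term FLCN knockdown group (adjusted p 0.0800 and 0.0655), without replicate 1 or 2 of the long-term FLCN knockdown group (0.134 and 0.0830), with no filter on low counts (0.0520) and in a fit of the 2 groups alone (0.0542), and PDGFRB fell (log2 fold change −1.40 with an SE of 0.440, edgeR adjusted p = 0.0250), a call lost without replicate 3 of the short-term FLCN knockdown group (adjusted p 0.136) and without replicate 1 or 2 of the long-term FLCN knockdown group (0.118 and 0.0821).

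In each group the pair of replicates 1 and 2 was the most alike. The measure was chi-square per degree of freedom over the genes past a low limit of counts in each pair. For replicates 1 and 2 it was 2.07 in the short-term nontarget and 3.33 in the short-term knockdown group. It was 4.93 in the long-term nontarget and 3.69 in the long-term knockdown group. Between replicates 1 and 3 it was 4.14, 10.8, 11.4 and 11.9 in the same order, and between replicates 2 and 3 it was 4.06, 11.8, 6.32 and 9.88. Among the listed genes SDF2L1, an ER chaperone partner, was 1.28 higher on the log2 scale in long-term knockdown replicate 3 than in the mean of replicates 1 and 2, 0.83 higher in the long-term nontarget and 0.64 in the short-term knockdown group. CEBPB, a transcription factor that pairs with ATF4, was 1.22, 0.61 and 0.86 higher in the same order. HSP90B1, the ER member of the HSP90 chaperones, showed −0.42, −0.22 and −0.46, so it lay on the low side there. The short-term nontarget group did not share these shifts, with 0.02 for SDF2L1, −0.08 for CEBPB and 0.16 for HSP90B1. For the listed genes, and for other lists where named, counts of called genes are therefore also given without the 4 libraries numbered 3, a choice made after seeing the data.

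The most abundant mRNAs of the list were those of ER chaperones. Per kilobase of exon, in the short-term nontarget group, the lectin chaperone CALR had a mean of 593 CPM per kb, the HSP70 chaperone HSPA5 (BiP) 301 and HSP90B1 223. ATF4 followed with 113 and PDIA4, a disulfide isomerase, with 106. The lowest of the tested genes were CHAC1, which degrades glutathione, at 3.48 and CARS, the cysteine synthetase, at 3.82 CPM per kb. The length used counts the exon bases of all annotated transcripts of a gene together, 10037 for CARS, and the ranking depends on it. In the ATF4 arm no other gene reached the level of ATF4 in this group. Between the 4 groups, mean levels per kb of CALR spanned 526 to 713 and those of ATF4 113 to 131, while CHAC1 spanned 3.48 to 5.40.

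**Figure D1:**
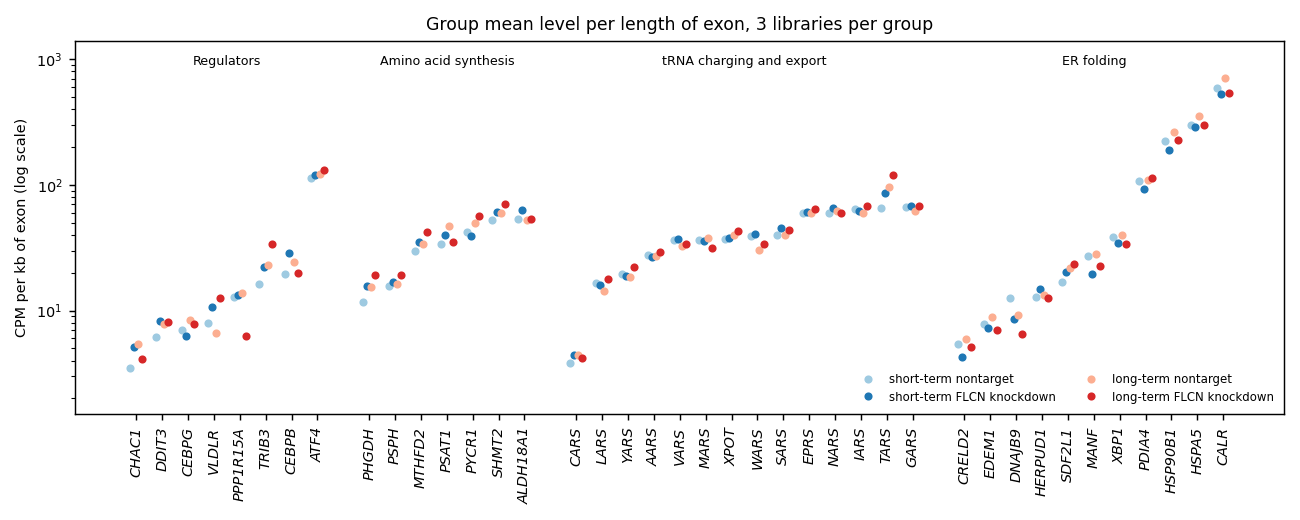
Mean level of each tested member per kilobase of exon, on a log axis, in the 4 groups (3 libraries each), sorted within each role. In the short-term nontarget group CALR had 593, HSPA5 301, ATF4 113 and CHAC1 3.48 CPM per kb.

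ASNS, often used as a marker of ATF4 activity, had 0 to 5 counts per library and 24 in all. In GENCODE release 29 it shares 44.6% of its exon bases with AC079781.5 on the same strand, and 84.2%, 98.9% and 82% of the exon bases of its transcripts ASNS-201, ASNS-202 and ASNS-203. AC079781.5 itself had 29 counts in all. How far reads on shared bases were left uncounted was not tested, so no level is given for ASNS. NUPR1 had 0 to 3 counts per library and 9 in all, with no overlapping gene.

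Other overlaps bear on some values, because the library kit does not mark strand and a gene and its antisense partner cannot be told apart. DDIT3 shares 27.2% of its exon bases with the listed gene MARS on the opposite strand, and MTHFD2 27.2% with SLC4A5. Smaller shares hold for PYCR1 (15.6%), CEBPB (11.8%), CALR (9.95%), EDEM1 (9.66%), SHMT2 (8.83%), VLDLR (7.90%), MARS (7.38%), DNAJB9 (6.45%) and WARS (6.06%). MTHFD2 has 7 named pseudogenes, and ATF4 and PSAT1 have 4 each, whose reads may not be separable.

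Promoter sequences were also searched for known elements of these programs. The genes were named as members of the same programs, so their shares of such elements are not independent of that choice. RefSeq promoters (GRCh38.p14, 250 bases before to 50 after each start) were found for 35 of the 42 genes, and not for NUPR1, PSPH, SHMT2, PYCR1, LARS, VARS and YARS. The letters TGATGNAA, read on both strands, are a form of the C/EBP-ATF response element (CARE) that ATF4 binds with C/EBP partners. They stood in 4.46% of the 27305 genes with a promoter, in 7 of 11 tRNA genes, 2 of 8 regulators, 1 of 5 amino acid genes and 1 of 11 ER genes. The letters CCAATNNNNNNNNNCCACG, the ER stress element (ERSE), stood in 0.0916% of all genes and in 5 of 11 ER genes, and in none of the other listed genes. The shorter ERSE-II, ATTGG and CCACG with any 1 base between them, was in 0.0696% of all genes and in 2 of 11 ER genes. The letters TGACGTGG of an XBP1 element (UPRE) were in 0.927% of all genes and in ALDH18A1 and CARS among the listed ones. The stretches below show matches of each arm, with the motif's fixed letters in capitals, read along the gene's own strand. The capitals are alike because these letters were searched for. ERSE, ERSE-II and UPRE share the letters CCACG or their complement CGTGG. A match is a description of the sequence only. CEBPG lies on the plus strand (chr19:33374061-33374088), AARS on the minus strand (chr16:70289676-70289703), GARS on the plus strand (chr7:30594835-30594862) and IARS on the minus strand (chr9:92293698-92293720). HSPA5 lies on the minus strand (chr9:125241381-125241419), XBP1 on the minus strand (chr22:28800593-28800631) and CALR on the plus strand (chr19:12938374-12938412).
CEBPG: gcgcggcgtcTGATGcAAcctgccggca
AARS: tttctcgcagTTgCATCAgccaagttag
GARS: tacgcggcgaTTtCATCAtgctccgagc
IARS: tttcagcgcgTTgCATCAcctcc
HSPA5: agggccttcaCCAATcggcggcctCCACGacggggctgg
XBP1: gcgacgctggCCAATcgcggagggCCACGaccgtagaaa
CALR: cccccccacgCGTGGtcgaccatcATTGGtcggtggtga

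Short-term knockdown asks what the FLCN shRNA cells differed in before long culture, and few of these genes were called. VLDLR, PHGDH and TARS rose and DNAJB9 and MANF fell. The genes that rose are of the ATF4 arm and those that fell of the unfolded protein arm, but whether the arms differ was not tested. With all libraries, no gene of the ATF4 arm was called lower by edgeR (0 at an unadjusted edgeR p below 0.05 and 0 by DESeq2) and no ER gene higher (0 at an unadjusted edgeR p below 0.05 and 0 by DESeq2). That is 5 of 40 genes, 12.5%, where 10.3% of all tested genes were called, and a share this close to that of all genes is no result about the list. By direction, 3 were higher (all genes 5.62%) and 2 lower (all genes 4.71%). The median log2 fold change was 0.10 over the 29 tested genes of the ATF4 arm and −0.17 over the 11 ER genes, where it was 0.00 over all genes. Of the ER genes 9 had a negative value, called or not. The count of called genes was 1 without short-term nontarget replicate 1 and also without replicate 2 (874 and 906 of all genes, from 1441 with all libraries). It was 3, 2 and 3 without knockdown replicates 1, 2 and 3 in turn (986, 1091 and 1258 of all genes). Without the 4 libraries numbered 3 it was 6, where 14.2% of all genes were called, and PYCR1 of the ATF4 arm was then called lower (−0.31, edgeR adjusted p = 0.0265).

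Long-term knockdown compares other libraries, those of the long-term cells, and here 11 of 40 genes were called, 27.5%, where 29.5% of all tested genes were. VLDLR, TRIB3, MTHFD2, TARS and YARS rose and PPP1R15A, PSAT1, MARS, DNAJB9, CALR and EDEM1 fell. The 5 higher genes compare with 13.7% of all genes and the 6 lower ones with 15.8%, so neither share stood clear of the rest of the transcriptome. In the ATF4 arm 5 rose and 3 fell (median log2 fold change 0.11). In the unfolded protein arm 3 of 11 fell (median −0.23, all genes 0.00). No ER gene was called higher by edgeR (0 at an unadjusted edgeR p below 0.05 and 0 by DESeq2). Here same-numbered libraries deviated together, most of all those numbered 3 (correlation 0.458). Knockdown replicate 2, though, went more with nontarget replicate 1 (0.231) than with nontarget replicate 2 (0.123). With the replicate number as a block 17 genes were called, 8 higher and 9 lower, where 36.8% of all genes were called. Among them 6 ER genes were lower. Without the block, the count was 5 without long-term nontarget replicate 2 (3443 of all genes, from 4119 with all libraries). It was 7 without knockdown replicate 1 (3295 of all genes) and 7 without knockdown replicate 2 (3454). Without the 4 libraries numbered 3 it was 16 (33.8% of all genes).

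**Figure D2:**
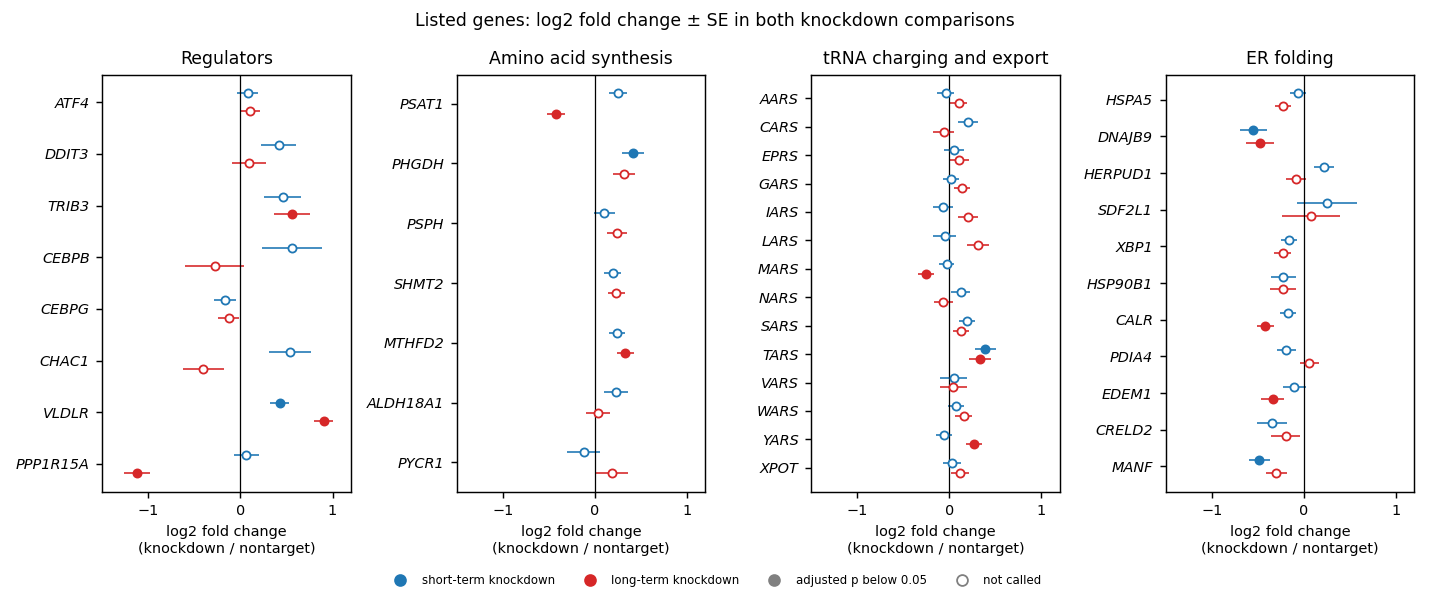
Log2 fold change with its SE for the 40 tested genes by role, in short-term (blue) and long-term (red) knockdown, filled where adjusted p is below 0.05. VLDLR is at 0.42 and 0.91, PPP1R15A at 0.06 and −1.13, and 9 of the 11 ER genes are below 0 in each comparison.

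Of the regulators, ATF4 itself had 269, 301 and 282 CPM in the short-term nontarget libraries, 288, 347 and 263 after short-term knockdown, 279, 342 and 299.7 in the long-term nontarget libraries and 308, 336 and 347 after long-term knockdown. The groups compared overlapped, and neither comparison was called (log2 fold change 0.08, edgeR adjusted p = 0.750 short-term, 0.11, edgeR adjusted p = 0.517 long-term). Its protein was not measured. DDIT3 (CHOP), a factor that ATF4 induces under lasting stress, had 6.83, 8.20 and 8.96 CPM in the short-term nontarget libraries, 11.5, 10.8 and 9.73 after short-term knockdown, 9.25, 11.8 and 9.45 in the long-term nontarget libraries and 13.1, 11 and 7.97 after long-term knockdown. Its short-term knockdown libraries were above the nontarget ones and the long-term groups overlapped, but the test called neither (0.42, edgeR adjusted p = 0.206, and 0.09, edgeR adjusted p = 0.759).

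VLDLR, a lipoprotein receptor that ATF4 can induce (chr9:2621834-2660053), had 70.0, 79.6 and 72.9 CPM in the short-term nontarget libraries, 95.1, 113 and 91 after short-term knockdown, 63.9, 62.6 and 60.7 in the long-term nontarget libraries and 121, 119 and 111 after long-term knockdown. In both comparisons each knockdown library lay above each nontarget library, and the long-term gap was the wider. VLDLR rose after short-term knockdown (log2 fold change 0.42 with an SE of 0.103, edgeR adjusted p = 0.0122) and after long-term knockdown (log2 fold change 0.91 with an SE of 0.103, edgeR adjusted p = 3.47e-06). The short-term call was lost without replicate 1 of the short-term nontarget group (adjusted p 0.0768) and without replicate 2 of the short-term FLCN knockdown group (0.0787). The long-term call held in every refit tried, that is under other settings and with each library left out, a fold limit aside. The difference between the effects, tested as an interaction, was 0.48 (SE 0.145, edgeR adjusted p = 0.0353). It was no longer called without replicate 2 or 3 of the short-term nontarget group (adjusted p 0.106 and 0.0567), without replicate 1 or 3 of the short-term FLCN knockdown group (0.0844 and 0.0739), without replicate 2 or 3 of the long-term nontarget group (0.0688 and 0.0726), without replicate 1 or 2 of the long-term FLCN knockdown group (0.0951 and 0.0790) and with no filter on low counts (0.0632).

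PPP1R15A (GADD34), the subunit that brings a phosphatase to eIF2alpha and so ends the response (chr19:48872392-48876057), had 37.5, 46.5 and 34.1 CPM in the short-term nontarget libraries, 41.9, 41.5 and 39.8 after short-term knockdown, 36.7, 49.9 and 41.1 in the long-term nontarget libraries and 17.4, 20.5 and 20.2 after long-term knockdown. The long-term knockdown libraries stood alone below all others, and the other 3 groups overlapped. PPP1R15A fell after long-term knockdown (log2 fold change −1.13 with an SE of 0.144, edgeR adjusted p = 1.20e-05), a call that held in every refit. Its short-term value was 0.06 (edgeR adjusted p = 0.847). The effects differed (interaction −1.19, SE 0.198, edgeR adjusted p = 4.66e-04), again in every refit.

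TRIB3, a pseudokinase that restrains ATF4, rose after long-term knockdown (log2 fold change 0.56 with an SE of 0.197, edgeR adjusted p = 0.0427), although 1 knockdown library lay within the nontarget range. The TRIB3 call was lost without replicate 1 or 2 of the long-term nontarget group (adjusted p 0.149 and 0.155) and without replicate 3 of the long-term FLCN knockdown group (0.180). Short-term TRIB3 had 0.46 (edgeR adjusted p = 0.181), and it was called higher there with no filter on low counts (edgeR adjusted p = 0.00854) and with the replicate block (0.0403). CEBPB, CEBPG and CHAC1 were called in neither comparison, with short-term log2 fold changes of 0.56, −0.17 and 0.54 and long-term values of −0.28, −0.13 and −0.40. Without the 4 libraries numbered 3, CEBPB was called lower after long-term knockdown (−0.56, edgeR adjusted p = 0.0234). The interaction of CHAC1 was not called (−0.94, edgeR adjusted p = 0.0619), but was with no filter on low counts (edgeR adjusted p = 0.0219), with the block (0.0207) and without replicate 2 of the long-term nontarget (0.0498) or long-term FLCN knockdown group (0.0272).

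**Figure D3:**
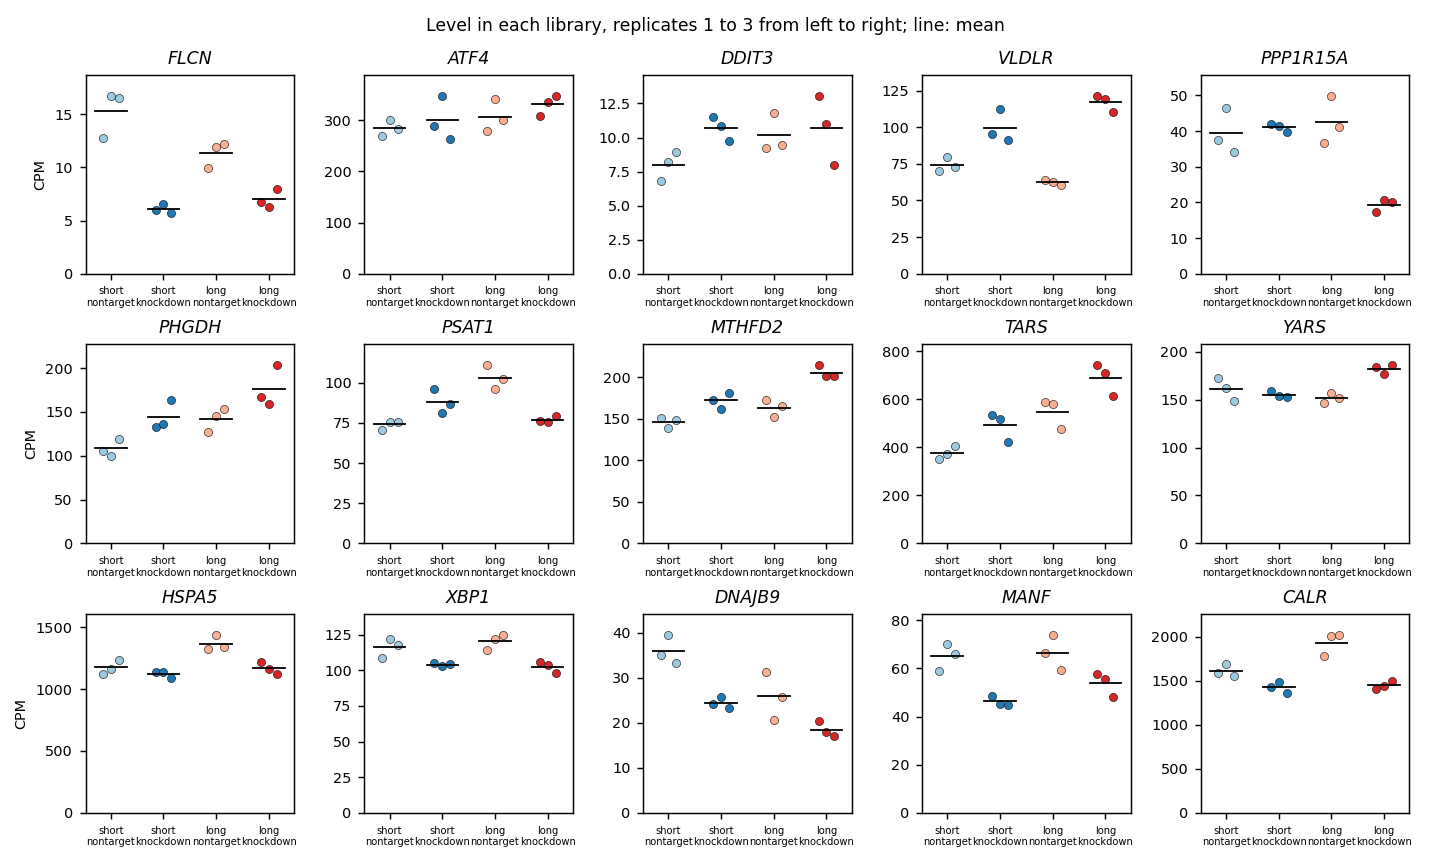
CPM in each of the 12 libraries for FLCN and 14 listed genes, replicates 1 to 3 from left to right, with the group mean as a line. PPP1R15A falls from 42.6 to 19.4 CPM on average after long-term knockdown, and VLDLR rises from 62.4 to 117.

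The serine pathway gave a split result. PHGDH, its first enzyme (chr1:119648411-119744226), had 106, 100.2 and 119 CPM in the short-term nontarget libraries, 133, 137 and 163 after short-term knockdown, 127, 145 and 154 in the long-term nontarget libraries and 167, 159 and 203 after long-term knockdown. Knockdown libraries were above nontarget ones in both comparisons, and the rise was called after short-term knockdown (log2 fold change 0.41 with an SE of 0.120, edgeR adjusted p = 0.0363) but not after long-term knockdown (log2 fold change 0.31 with an SE of 0.119, edgeR adjusted p = 0.0563). The long-term value was called with the replicate block (edgeR adjusted p = 0.00514), with no filter on low counts (0.0446), without replicate 2 of the long-term FLCN knockdown group (0.04999) and without the libraries numbered 3 (0.0221). The short-term call was lost without replicate 1 or 2 of the short-term nontarget group (adjusted p 0.128 and 0.157) and without replicate 2 or 3 of the short-term FLCN knockdown group (0.0549 and 0.134), and the interaction was not called (−0.10, edgeR adjusted p = 0.771).

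PSAT1, the next enzyme of the pathway (chr9:78297143-78330093), had 70.7, 75.8 and 75.7 CPM in the short-term nontarget libraries, 96, 81.3 and 86.5 after short-term knockdown, 111, 96.3 and 103 in the long-term nontarget libraries and 76, 75.3 and 79 after long-term knockdown. It was higher in all 3 short-term knockdown libraries than in the nontarget ones and lower in all 3 long-term knockdown libraries. The long-term fall was called (log2 fold change −0.43 with an SE of 0.0978, edgeR adjusted p = 0.00292) and held in every refit, while the short-term value was 0.25 (edgeR adjusted p = 0.131). The effects differed (interaction −0.68, SE 0.139, edgeR adjusted p = 0.00279), also in every refit.

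MTHFD2, a mitochondrial enzyme of folate metabolism (chr2:74198562-74217565), had 150.4, 138 and 148 CPM in the short-term nontarget libraries, 173, 162 and 181 after short-term knockdown, 172, 153 and 165 in the long-term nontarget libraries and 214, 202 and 201 after long-term knockdown. The groups did not overlap in either comparison. MTHFD2 rose after long-term knockdown (log2 fold change 0.33 with an SE of 0.0893, edgeR adjusted p = 0.00920), a call lost without replicate 2 of the long-term nontarget group (adjusted p 0.0598), and had a short-term value of 0.24 (edgeR adjusted p = 0.109), called higher with the replicate block (edgeR adjusted p = 0.0391). PSPH (the last step of serine synthesis), SHMT2 (a mitochondrial serine enzyme), and ALDH18A1 and PYCR1 (proline synthesis) were not called, with short-term values of −0.12 to 0.23 and long-term values of 0.03 to 0.24. With the block, SHMT2 was called higher after long-term knockdown (edgeR adjusted p = 0.0337). Without the libraries numbered 3, PYCR1 was called lower after short-term knockdown (edgeR adjusted p = 0.0265).

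Among the 14 genes of tRNA charging and export, TARS, the threonine synthetase (chr5:33440696-33469539), was the one called in both comparisons. TARS had 349, 370.3 and 404 CPM in the short-term nontarget libraries, 533, 518 and 421 after short-term knockdown, 587, 581 and 474 in the long-term nontarget libraries and 740.4, 711 and 614 after long-term knockdown. The knockdown libraries were above the nontarget ones at both times, and with either shRNA the long-term libraries were above the short-term ones. The rise was called after short-term (log2 fold change 0.39 with an SE of 0.116, edgeR adjusted p = 0.0397) and long-term knockdown (log2 fold change 0.33 with an SE of 0.115, edgeR adjusted p = 0.0385). The short-term call was lost without replicate 1, 2 or 3 of the short-term nontarget group (adjusted p 0.171, 0.126 and 0.0541) and without replicate 1 or 2 of the short-term FLCN knockdown group (0.161 and 0.123). Its long-term call was lost without replicate 2 or 3 of the long-term nontarget group (adjusted p 0.0545 and 0.179), without replicate 1 or 2 of the long-term FLCN knockdown group (0.149 and 0.114) and in a fit of the 2 groups alone (0.0592).

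YARS, the tyrosine synthetase (chr1:32775237-32818153), had 173, 163 and 149 CPM in the short-term nontarget libraries, 159, 154 and 153 after short-term knockdown, 147, 157 and 152 in the long-term nontarget libraries and 184, 177 and 186 after long-term knockdown. All 3 long-term knockdown libraries were above every other library, and the short-term groups overlapped. YARS rose after long-term knockdown (log2 fold change 0.26 with an SE of 0.0875, edgeR adjusted p = 0.0307), a call lost without replicate 1, 2 or 3 of the long-term nontarget group (adjusted p 0.0772, 0.0617 and 0.0779), without replicate 1, 2 or 3 of the long-term FLCN knockdown group (0.0941, 0.0635 and 0.0611), with no filter on low counts (0.114) and in a fit of the 2 groups alone (0.0764). The short-term value was −0.05 (edgeR adjusted p = 0.778). MARS, the methionine synthetase, fell after long-term knockdown (log2 fold change −0.25 with an SE of 0.0843, edgeR adjusted p = 0.0307), which was lost without replicate 2 of the long-term nontarget group (adjusted p 0.0956), without replicate 1 or 2 of the long-term FLCN knockdown group (0.0940 and 0.0910), with no filter on low counts (0.132) and in a fit of the 2 groups alone (0.0781). The other 11 genes, XPOT as the tRNA exporter among them, were called in neither comparison. Their log2 fold changes ran from −0.07 (IARS) to 0.20 (CARS) short-term and from −0.07 (NARS) to 0.31 (LARS) long-term. With the block LARS was called higher after long-term knockdown (edgeR adjusted p = 0.0197), and without the libraries numbered 3 LARS (edgeR adjusted p = 0.00703) and IARS (edgeR adjusted p = 0.0143) were. LARS was also called higher with no filter on low counts (edgeR adjusted p = 0.0499). Without replicate 3 of the long-term FLCN knockdown group, LARS (edgeR adjusted p = 0.0159) and IARS (0.0256) were called higher.

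The unfolded protein arm had 2 of 11 genes called lower short-term (all genes 4.71%) and 3 of 11 long-term (all genes 15.8%). Long-term, DESeq2 called 5 of 11 lower, where it called 2181 of 16834 genes lower, and edgeR with the replicate block called 6, where it called 2713 of 13959 lower. Whether the arm differs from all genes was not tested. HSPA5, the main ER chaperone (chr9:125234853-125241330), whose promoter holds the ERSE shown above, had 1124, 1165 and 1238 CPM in the short-term nontarget libraries, 1141, 1139 and 1086 after short-term knockdown, 1327, 1438 and 1337 in the long-term nontarget libraries and 1218, 1162 and 1119.9 after long-term knockdown. The short-term groups overlapped and the long-term knockdown libraries lay below the nontarget ones. HSPA5 was not called short-term (−0.07, edgeR adjusted p = 0.709) or long-term (−0.23, edgeR adjusted p = 0.0535). The long-term value was called lower with the replicate block (edgeR adjusted p = 0.0174), without the libraries numbered 3 (0.0374), when genes under a mean of 10 CPM were left out (0.0385) and by DESeq2 (0.00996).

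XBP1, the factor that IRE1 activates by splicing (chr22:28794555-28800597), had 109, 122 and 118 CPM in the short-term nontarget libraries, 105, 103 and 104 after short-term knockdown, 114, 122 and 125 in the long-term nontarget libraries and 106, 104 and 98.4 after long-term knockdown. The knockdown libraries were below the nontarget ones at both times, by little. XBP1 was not called short-term (−0.16, edgeR adjusted p = 0.311) or long-term (−0.23, edgeR adjusted p = 0.0609). Long-term it was called lower with the block (edgeR adjusted p = 0.0367), when genes under a mean of 10 CPM were left out (0.0423), by DESeq2 (0.0425) and without long-term nontarget replicate 1 (0.0481). Gene counts do not separate spliced from unspliced XBP1.

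DNAJB9, a helper of HSPA5 that XBP1 induces (chr7:108569568-108574850), had 35.1, 39.5 and 33.1 CPM in the short-term nontarget libraries, 24.2, 25.7 and 23.4 after short-term knockdown, 31.4, 20.6 and 25.7 in the long-term nontarget libraries and 20.5, 18 and 17 after long-term knockdown. Short-term nontarget libraries were the highest, and in both comparisons no knockdown library reached a nontarget one, though in long-term cells by a narrow margin. DNAJB9 fell after short-term (log2 fold change −0.55 with an SE of 0.146, edgeR adjusted p = 0.0212) and long-term knockdown (log2 fold change −0.48 with an SE of 0.150, edgeR adjusted p = 0.0223). The short-term call was lost without replicate 1 or 2 of the short-term nontarget group (adjusted p 0.0615 and 0.109) and without replicate 1 or 3 of the short-term FLCN knockdown group (0.0725 and 0.0542). The long-term call was lost without replicate 1 of the long-term nontarget group (adjusted p 0.127), without replicate 2 or 3 of the long-term FLCN knockdown group (0.0604 and 0.0623), in a fit of the 2 groups alone (0.0592) and without all 4 libraries numbered 3 (0.0514).

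MANF, a secreted factor that rises with ER stress, had 58.9, 70.0 and 66 CPM in the short-term nontarget libraries, 48.5, 45.3 and 44.9 after short-term knockdown, 66.3, 73.9 and 59.3 in the long-term nontarget libraries and 57.5, 55.5 and 48.2 after long-term knockdown. All nontarget libraries were above the knockdown libraries of their time. The fall was called after short-term knockdown (log2 fold change −0.49 with an SE of 0.115, edgeR adjusted p = 0.0105) and lost without replicate 2 of the short-term nontarget group (adjusted p 0.0642). After long-term knockdown MANF had −0.30 (edgeR adjusted p = 0.0540) and was called lower with the block (edgeR adjusted p = 0.0233), when genes under a mean of 10 CPM were left out (0.0458), without replicate 3 of the long-term nontarget group (0.0257) and without the libraries numbered 3 (0.0378). The interaction of MANF was not called (0.18, edgeR adjusted p = 0.520).

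CALR, the most abundant member per length (chr19:12938578-12944489), had 1587, 1690.3 and 1549 CPM in the short-term nontarget libraries, 1430.0, 1486 and 1365 after short-term knockdown, 1778, 2004 and 2021 in the long-term nontarget libraries and 1411, 1439 and 1493 after long-term knockdown. Nontarget libraries were above knockdown libraries at both times, with the wider gap in long-term cells. CALR fell after long-term knockdown (log2 fold change −0.42 with an SE of 0.0889, edgeR adjusted p = 0.00162) in every refit and had a short-term value of −0.17 (edgeR adjusted p = 0.261). EDEM1, which directs misfolded glycoproteins to degradation, fell after long-term knockdown (log2 fold change −0.34 with an SE of 0.122, edgeR adjusted p = 0.0435). The EDEM1 call was lost without replicate 1, 2 or 3 of the long-term nontarget group (adjusted p 0.0818, 0.0817 and 0.0649), without replicate 1, 2 or 3 of the long-term FLCN knockdown group (0.0770, 0.104 and 0.0676) and with no filter on low counts (0.0643). HERPUD1, SDF2L1, HSP90B1, PDIA4 and CRELD2, all of ER folding or clearance, were called in neither comparison, with values of −0.35 (CRELD2) to 0.25 (SDF2L1) short-term and −0.23 (HSP90B1) to 0.08 (SDF2L1) long-term.

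A second list held other targets of ATF4, many of them amino acid transporters. Of 22 such genes 20 were tested, all but the hormones FGF21 and ADM2. After short-term knockdown 2 rose (all genes 5.62%) and edgeR called none lower (1 at an unadjusted edgeR p below 0.05 and 1 by DESeq2), and the list had a median log2 fold change of 0.23. Without the libraries numbered 3 edgeR called 5 higher and 1 lower of 20, 30% where 14.2% of all genes were called. STC2, a secreted glycoprotein, rose (log2 fold change 0.96 with an SE of 0.0918, edgeR adjusted p = 3.59e-06). SLC1A4, a transporter of neutral amino acids, rose with overlapping groups (log2 fold change 0.61 with an SE of 0.181, edgeR adjusted p = 0.0407), a call lost without replicate 1 or 2 of the short-term nontarget group (adjusted p 0.138 and 0.154), without replicate 1 or 3 of the short-term FLCN knockdown group (0.0593 and 0.191) and in a fit of the 2 groups alone (0.0618).

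After long-term knockdown 8 of the 20 fell and 3 rose, 55% where 29.5% of all genes were called, with a median of −0.24. With the replicate block 14 of 20 were called, 9 lower, where 36.8% of all genes were. Without the libraries numbered 3 it was 3 higher and 9 lower (33.8% of all genes). Whether the shares differ was not tested. SLC6A9, a glycine transporter of low level, had 1.64, 1.21 and 2.04 CPM in the short-term nontarget libraries, 1.27, 0.877 and 1.24 after short-term knockdown, 2.68, 1.39 and 2.85 in the long-term nontarget libraries and 0.116, 0.147 and 0.170 after long-term knockdown. The long-term knockdown libraries held almost none of it, 3 counts against 51, a ratio per total of 0.0573 with a 95% interval of 0.0114 to 0.177 (exact binomial, counting error only). It was called lower (edgeR adjusted p = 3.55e-05), and its fitted log2 fold change of −2.62 depends on the prior count. SLC7A5, the leucine transporter LAT1, had 449.9, 477 and 722 CPM without and 148, 128 and 234 CPM with long-term knockdown. Each knockdown library lay below each nontarget one (log2 fold change −1.69 with an SE of 0.285, edgeR adjusted p = 3.48e-04). SLC3A2, its partner chain, also fell (log2 fold change −1.08 with an SE of 0.134, edgeR adjusted p = 9.33e-06), as did the stress factor ATF3 (log2 fold change −1.31 with an SE of 0.151, edgeR adjusted p = 4.14e-06). These 4 are the largest changes in the list, and their calls held in every refit that tested them. SLC6A9 had too low a level to enter the refit that left out genes under a mean of 10 CPM. The 3 genes that rose were DDIT4, an inhibitor of mTORC1, SLC1A4 and GPT2, an alanine aminotransferase, at 0.72, 0.50 and 0.39 (edgeR adjusted p = 0.00483, 0.0457 and 0.0201). DDIT4 shares 41.2% of its exon bases with DDIT4-AS1 on the opposite strand. SLC1A4 was lost without replicate 1 or 2 of the long-term nontarget group (adjusted p 0.136 and 0.161), without replicate 1, 2 or 3 of the long-term FLCN knockdown group (0.104, 0.0531 and 0.111) and when genes under a mean of 10 CPM were left out (0.0550). GPT2 was lost without replicate 1 or 2 of the long-term nontarget group (adjusted p 0.0794 and 0.0667) and without replicate 3 of the long-term FLCN knockdown group (0.104).

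**Figure D4:**
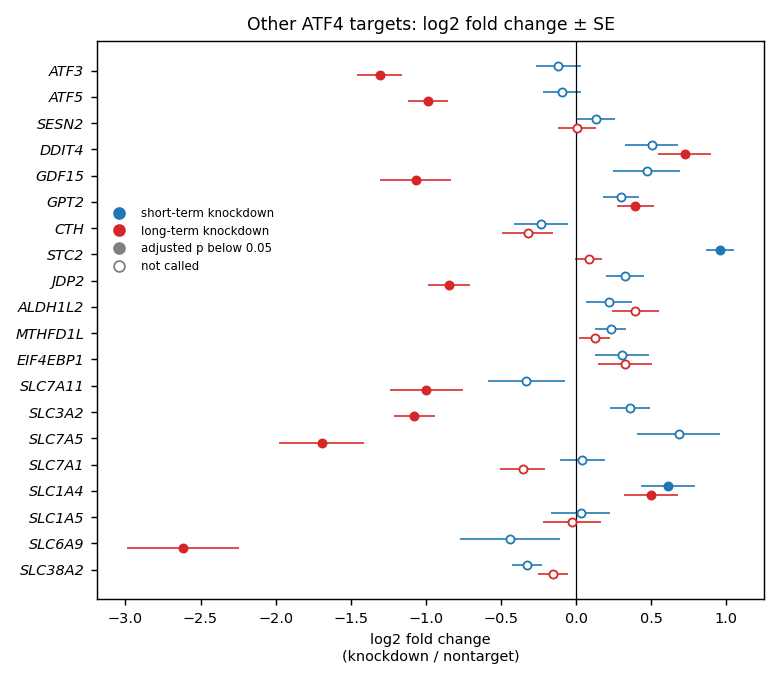
Log2 fold change with its SE of the 20 tested ATF4 targets outside the list, in short-term (blue) and long-term (red) knockdown, filled where adjusted p is below 0.05. Long-term, 8 are called lower, from SLC6A9 at −2.62 to JDP2 at −0.85, and 3 higher.

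The kinases, eIF2 subunits and sensors upstream formed a list of 16. After short-term knockdown edgeR called none, while 6 of 16 had an unadjusted edgeR p below 0.05 and DESeq2 called 1. After long-term knockdown 2 rose and 3 fell, 31.2% where 29.5% of all genes were called, so this share is no result about the list. ERN1, which encodes the ER sensor IRE1, fell from 5.49, 4.80 and 6.21 to 3.47, 3.23 and 3.39 CPM (log2 fold change −0.67 with an SE of 0.212, edgeR adjusted p = 0.0236). That call was lost without replicate 3 of the long-term nontarget group (adjusted p 0.0911), without replicate 1 or 2 of the long-term FLCN knockdown group (0.0595 and 0.0662), with no filter on low counts (0.0765), with DESeq2 in place of edgeR (0.0890) and without all 4 libraries numbered 3 (0.124). EIF2B4, a subunit of the exchange factor of eIF2, rose (log2 fold change 0.49 with an SE of 0.129, edgeR adjusted p = 0.00739). ATF6B, a relative of ATF6, fell (log2 fold change −0.36 with an SE of 0.108, edgeR adjusted p = 0.0166), a call lost without replicate 2 or 3 of the long-term nontarget group (adjusted p 0.0630 and 0.0570) and without replicate 2 of the long-term FLCN knockdown group (0.0764). PPP1R15B, the constitutive relative of PPP1R15A, which also brings a phosphatase to eIF2alpha, fell (log2 fold change −0.35 with an SE of 0.0937, edgeR adjusted p = 0.00848). EIF2AK1, the heme-sensing kinase, also rose (log2 fold change 0.30 with an SE of 0.0977, edgeR adjusted p = 0.0271), a call lost without replicate 1 or 3 of the long-term nontarget group (adjusted p 0.0522 and 0.128), without replicate 1 or 2 of the long-term FLCN knockdown group (0.115 and 0.0965) and in a fit of the 2 groups alone (0.0660).

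Of 10 cytosolic synthetase and scaffold genes outside the list, 2 rose after short-term (all genes 5.62%) and 3 after long-term knockdown (all genes 13.7%). Called in either direction long-term were 30%, where 29.5% of all genes were. With the replicate block 5 of 10 were called higher long-term, where 36.8% of all genes were called in either direction, and without the libraries numbered 3 also 5 (33.8%), so the share depends on the fit, and no difference from all genes was tested. By direction, edgeR called none lower short-term (0 at an unadjusted edgeR p below 0.05 and 0 by DESeq2) or long-term (0 at an unadjusted edgeR p below 0.05 and 0 by DESeq2). RARS, the arginine synthetase, rose short-term (log2 fold change 0.48 with an SE of 0.117, edgeR adjusted p = 0.0131) and long-term (log2 fold change 0.54 with an SE of 0.117, edgeR adjusted p = 0.00180). The short-term RARS call was lost without replicate 1 or 2 of the short-term nontarget group (adjusted p 0.0741 and 0.0543) and without replicate 1 or 2 of the short-term FLCN knockdown group (0.0628 and 0.05004). DARS, the aspartate synthetase, rose short-term (log2 fold change 0.38 with an SE of 0.114, edgeR adjusted p = 0.0408), a call lost without replicate 1, 2 or 3 of the short-term nontarget group (adjusted p 0.157, 0.0893 and 0.108) and without replicate 1 or 2 of the short-term FLCN knockdown group (0.162 and 0.147). FARSB, a phenylalanine synthetase chain, rose long-term (log2 fold change 0.48 with an SE of 0.130, edgeR adjusted p = 0.00883), a call lost without replicate 1 of the long-term FLCN knockdown group (adjusted p 0.0677). AIMP2, a scaffold protein, rose long-term (log2 fold change 0.41 with an SE of 0.115, edgeR adjusted p = 0.0115), a call lost without replicate 1 of the long-term nontarget group (adjusted p 0.0555). AIMP2 shares 28.9% of its exon bases with EIF2AK1 on the opposite strand, so the rises of this pair cannot be told apart on those bases. Of 17 mitochondrial synthetases edgeR called none short-term, while 0 of 17 had an unadjusted edgeR p below 0.05 and DESeq2 called 0. Long-term CARS2 fell (log2 fold change −1.03 with an SE of 0.134, edgeR adjusted p = 1.60e-05) and RARS2 rose (log2 fold change 0.52 with an SE of 0.111, edgeR adjusted p = 0.00156), the 2 of 17 called (11.8%, all genes 29.5%).

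A further 25 genes of ER folding and ER-associated degradation (ERAD) gave 3 lower (all genes 4.71%) and 1 higher gene short-term (all genes 5.62%) and 10 lower (all genes 15.8%) and 2 higher long-term (all genes 13.7%). The long-term share was 48% where 29.5% of all genes were called, with a median of −0.20. With the replicate block 14 of 25 were called long-term, where 36.8% of all genes were. No difference between these shares was tested. Without the libraries numbered 3 the counts were 3 higher and 3 lower short-term (all genes called 14.2%) and 4 higher and 10 lower long-term (all genes called 33.8%). EDEM3, a mannosidase of ERAD, had 27.9, 24.9 and 33.3 CPM in the short-term nontarget libraries, 14.4, 13.9 and 12.9 after short-term knockdown, 24.1, 20.8 and 19.7 in the long-term nontarget libraries and 11.3, 14.2 and 10.2 after long-term knockdown. Knockdown libraries were below all nontarget libraries at both times, short-term (log2 fold change −1.04 with an SE of 0.155, edgeR adjusted p = 2.77e-04) and long-term (log2 fold change −0.84 with an SE of 0.158, edgeR adjusted p = 6.12e-04). PDIA6, a disulfide isomerase that shares 25.2% of its exon bases with ATP6V1C2 on the opposite strand, fell short-term (log2 fold change −0.52 with an SE of 0.0864, edgeR adjusted p = 7.59e-04) and long-term (log2 fold change −0.48 with an SE of 0.0861, edgeR adjusted p = 4.07e-04). SEC24D, a coat protein of ER export, fell short-term (log2 fold change −0.40 with an SE of 0.117, edgeR adjusted p = 0.0376), a call lost without replicate 1, 2 or 3 of the short-term nontarget group (adjusted p 0.0901, 0.0732 and 0.141) and without replicate 1 or 2 of the short-term FLCN knockdown group (0.148 and 0.109). CANX, the membrane-bound partner of CALR, rose short-term (log2 fold change 0.38 with an SE of 0.0974, edgeR adjusted p = 0.0162), a call lost without replicate 1 or 2 of the short-term nontarget group (adjusted p 0.0715 and 0.0917) and without replicate 1 of the short-term FLCN knockdown group (0.0515).

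Long-term, the oxidase ERO1B fell (log2 fold change −0.91 with an SE of 0.230, edgeR adjusted p = 0.00591) and the reductase DNAJC10 fell (log2 fold change −0.70 with an SE of 0.117, edgeR adjusted p = 2.00e-04), while DERL2, a channel protein of ERAD, rose (log2 fold change 0.88 with an SE of 0.123, edgeR adjusted p = 2.97e-05). The DNAJC10 and DERL2 calls held in every refit, and that of ERO1B in all but the one that left out genes under a mean of 10 CPM, ERO1B among them. Cytosolic heat shock genes, which answer to another factor, numbered 10. Short-term edgeR called none, while 2 of 10 had an unadjusted edgeR p below 0.05 and DESeq2 called 0. Long-term BAG3, a cochaperone of HSP70, fell (log2 fold change −0.67 with an SE of 0.108, edgeR adjusted p = 1.29e-04), the 1 of 10 called lower (all genes 15.8%). With the replicate block 3 of 10 were called lower, where 2713 of all 13959 genes were. Without the libraries numbered 3 this was 2 of 10, where 2506 of 14083 genes were called lower.

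**Figure D5:**
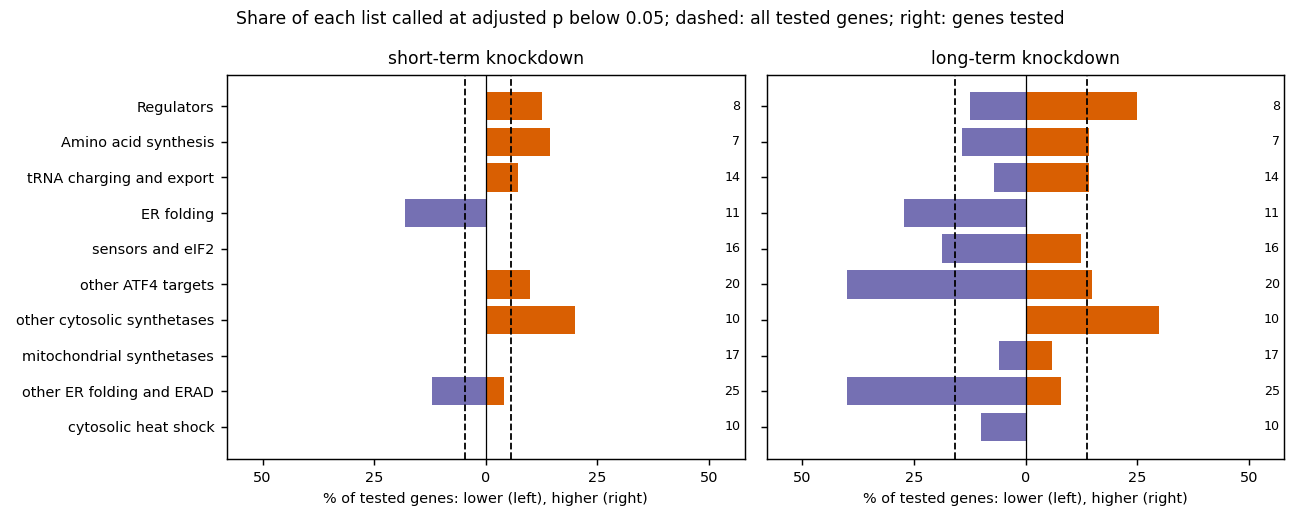
Percent of tested genes called lower (left) and higher (right) in each list, with dashed lines at the percent over all tested genes and the number tested at the right edge. Long-term, 8 of 20 other ATF4 targets and 10 of 25 further ER genes are lower, where 15.8% of all genes are.

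Long culture without knockdown compares the long-term with the short-term nontarget libraries, the same that serve as controls above. It called 3 of 40 genes where 7.55% of all genes were called, 2 higher (3.17% of all genes) and 1 lower (4.38%). PSAT1 rose (log2 fold change 0.48 with an SE of 0.0980, edgeR adjusted p = 0.00493) in every refit. TARS rose (log2 fold change 0.55 with an SE of 0.116, edgeR adjusted p = 0.00629), a call lost without replicate 1 of the short-term nontarget group (adjusted p 0.0505). WARS, the tryptophan synthetase, fell (log2 fold change −0.35 with an SE of 0.0875, edgeR adjusted p = 0.0173), a call lost without replicate 1 or 2 of the short-term nontarget group (adjusted p 0.0641 and 0.104) and without replicate 1 of the long-term nontarget group (0.0563). The count was 1 without short-term nontarget replicate 1 (581 of all genes), and without the 4 libraries numbered 3 it was 8 (11.3% of all genes). Some refits added calls, these among them. PHGDH rose with the block (edgeR adjusted p = 0.0030) and without the libraries numbered 3 (0.0058). TRIB3 rose with no filter on low counts (edgeR adjusted p = 0.0028) and with the block (0.0316). DNAJB9 fell with the block (edgeR adjusted p = 0.0215). In some refits HSPA5, CALR, HSP90B1 and CHAC1 rose and VARS fell. Of the 20 other ATF4 targets 3 rose (all genes 3.17%) and edgeR called none lower (1 at an unadjusted edgeR p below 0.05 and 0 by DESeq2). The 3 that rose were SLC3A2 (0.61, edgeR adjusted p = 0.00752), SLC7A11, the cystine transporter (0.85, edgeR adjusted p = 0.0420), and ATF3 (0.48, edgeR adjusted p = 0.0491). SLC7A11 was lost without replicate 1 or 2 of the short-term nontarget group (adjusted p 0.167 and 0.164), without replicate 1 or 2 of the long-term nontarget group (0.182 and 0.0586) and when genes under a mean of 10 CPM were left out (0.0532). ATF3 was lost without replicate 1, 2 or 3 of the short-term nontarget group (adjusted p 0.157, 0.135 and 0.123), without replicate 2 or 3 of the long-term nontarget group (0.173 and 0.177), when genes under a mean of 10 CPM were left out (0.0558), with DESeq2 in place of edgeR (0.0503) and without all 4 libraries numbered 3 (0.0977). Without the libraries numbered 3 the list gave 5 higher and 1 lower, where 11.3% of all genes were called.

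Long culture with knockdown compares the long-term with the short-term knockdown libraries and called 7 of 40 genes, where 26.6% of all genes were called. The 5 higher genes were TRIB3, PYCR1, MTHFD2, TARS and PDIA4 (all genes 11.5%), and the 2 lower ones PPP1R15A and WARS (all genes 15.2%). PPP1R15A fell (log2 fold change −1.08 with an SE of 0.144, edgeR adjusted p = 2.51e-05) and TARS rose (log2 fold change 0.49 with an SE of 0.116, edgeR adjusted p = 0.00444) in every refit. The other calls were lost in some. TRIB3 (0.60, edgeR adjusted p = 0.0339) was lost without replicate 1 or 2 of the short-term FLCN knockdown group (adjusted p 0.131 and 0.0830), without replicate 3 of the long-term FLCN knockdown group (0.132) and in a fit of the 2 groups alone (0.0527). PYCR1 (0.54, edgeR adjusted p = 0.0314) was lost without replicate 1 or 2 of the short-term FLCN knockdown group (adjusted p 0.0962 and 0.115), without replicate 3 of the long-term FLCN knockdown group (0.119) and in a fit of the 2 groups alone (0.0580). MTHFD2 (0.26, edgeR adjusted p = 0.0414) was lost without replicate 1 or 2 of the short-term FLCN knockdown group (adjusted p 0.0909 and 0.146), without replicate 1 or 2 of the long-term FLCN knockdown group (0.158 and 0.0934), with no filter on low counts (0.116) and in a fit of the 2 groups alone (0.103). PDIA4 (0.29, edgeR adjusted p = 0.0426) was lost without replicate 1 or 3 of the short-term FLCN knockdown group (adjusted p 0.124 and 0.130), without replicate 1, 2 or 3 of the long-term FLCN knockdown group (0.0537, 0.134 and 0.0886), with no filter on low counts (0.0514), in a fit of the 2 groups alone (0.0838), when genes under a mean of 10 CPM were left out (0.0537) and without all 4 libraries numbered 3 (0.105). WARS (−0.27, edgeR adjusted p = 0.0293) was lost without replicate 1 or 2 of the short-term FLCN knockdown group (adjusted p 0.0699 and 0.115), without replicate 2 or 3 of the long-term FLCN knockdown group (0.0801 and 0.0661), with no filter on low counts (0.114) and in a fit of the 2 groups alone (0.0686).

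The number of called genes in long culture with knockdown moved with the libraries used. With the replicate number as a block it was 15, 10 higher and 5 lower, where 34.4% of all genes were called. Without the block, it was 2 without short-term knockdown replicate 1 (2997 of all genes, from 3719 with all libraries). It was 4 without short-term knockdown replicate 2 (3217 of all genes) and 4 without long-term knockdown replicate 2 (2932). Without the 4 libraries numbered 3 it was 13 (31.4% of all genes). In the comparison without block, of the 20 other ATF4 targets 8 fell (all genes 15.2%) and 2 rose (all genes 11.5%), and among the 25 further ER genes 5 fell and 5 rose. Whether these shares differ from those of all genes was not tested.

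Whether knockdown acted differently in long-term and short-term cells was tested gene by gene as an interaction. It was called for PPP1R15A, PSAT1 and VLDLR, 3 of 40 or 7.5%, where 13.4% of all tested genes were called. VLDLR had the higher effect in long-term cells (all genes 4.98%) and the other 2 the lower (all genes 8.43%). For the other genes called in 1 knockdown comparison alone, the interaction was not called with all libraries, so no difference between the times is shown. No ER gene was called by edgeR, while 0 of 11 had an unadjusted edgeR p below 0.05 and DESeq2 called 0. Among the 20 other ATF4 targets 8 had the lower effect in long-term cells, 40% where 8.43% of all genes had it (not tested against each other), and edgeR called none in the other direction (0 at an unadjusted edgeR p below 0.05 and 0 by DESeq2). They include SLC7A5 (−2.38, SE 0.397, edgeR adjusted p = 7.70e-04) and SLC3A2 (−1.43, SE 0.188, edgeR adjusted p = 4.14e-05). Without the 4 libraries numbered 3, 6 listed genes (16.6% of all genes) were called, the added ones being PYCR1 (edgeR adjusted p = 0.00716), YARS (0.0450) and CEBPB (0.0457). CEBPB was also called without replicate 3 of the long-term FLCN knockdown group (0.0279).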

How the data were processed

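The authors prepared TruSeq RNA v2 libraries, sequenced them on a MiSeq, mapped reads with STAR to GRCh38 and counted them per gene with featureCounts, versions not given. Their deposited table holds raw values of the unit count and normalized values of the unit score, of which only the raw counts were tested. Gene IDs were matched without version to GENCODE release 29, with gene spans given only where the version was the same. Exon lengths and overlaps were also used where it was another, as for DDIT3 and CHAC1. The test was edgeR 4.0.16 (R 4.3.3) with filterByExpr (13959 genes, 99.8% of counts), TMM, and a robust quasi-likelihood fit of all 12 libraries with a term per group and a prior count of 2 for fold changes. P-values are two-sided. Scripts were tested on simulated data. The 42 genes and the other lists were chosen with earlier results of these data known. Values in every library are given for FLCN, ATF4, DDIT3, HSPA5 and XBP1 and, per role and knockdown comparison, for the 2 called genes of largest change. In other lists at most 4 called genes of largest change are named with their tests. Other genes named, such as TRIB3, MARS, EDEM1, GPT2 and EIF2AK1, were named after their values were seen. Same-numbered libraries deviated together (correlation above 0.1 in all 3 pairs) in long-term knockdown (0.284, 0.123 and 0.458) and in long culture with knockdown (0.223, 0.292 and 0.455). Some pairs of unlike number were also above 0.1. Long-term, knockdown replicate 2 with nontarget replicate 1 had 0.231, and in long culture with knockdown replicates 1 and 2 had 0.120 and 0.134. Replicate 3 correlated negatively with replicates 1 and 2 of the other group, at −0.397 to −0.0886 long-term and −0.329 to −0.257 in long culture with knockdown. Alternatives were RLE factors, DESeq2 1.42.0, no filter, a mean of at least 10 CPM, only the groups compared, a fold limit of 1.5, the replicate block, each library left out in turn, and, added after seeing the data, the libraries numbered 3 left out.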

Additional observations from a re-analysis of the deposited data

Results flagged for a closer look

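For 3 listed genes the effect of knockdown differed between long-term and short-term cells by the interaction test. PPP1R15A had a difference of −1.19 on the log2 scale (edgeR adjusted p = 4.66e-04), from 0.06 short-term to −1.13 long-term. For PSAT1 the difference was −0.68 (edgeR adjusted p = 0.00279), from 0.25 to −0.43. For VLDLR it was 0.48 (edgeR adjusted p = 0.0353), from 0.42 to 0.91, and this call was lost without replicate 2 or 3 of the short-term nontarget group (adjusted p 0.106 and 0.0567), without replicate 1 or 3 of the short-term FLCN knockdown group (0.0844 and 0.0739), without replicate 2 or 3 of the long-term nontarget group (0.0688 and 0.0726), without replicate 1 or 2 of the long-term FLCN knockdown group (0.0951 and 0.0790) and with no filter on low counts (0.0632). The cause of these differences was not tested.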

How the results depend on the processing

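Every listed gene called kept its direction in every refit (the fold limit aside), and 0 of 5 short-term, 4 of 11 long-term, 1 of 3 (long culture, nontarget), 2 of 7 (long culture, knockdown) and 2 of 3 interaction calls kept an adjusted p below 0.05 throughout. At a fold change of at least 1.5, listed genes called numbered 0 short-term (edgeR at unadjusted p below 0.05 and that fold 0, DESeq2 0), 2 long-term, 0 in nontarget culture (1 unadjusted, DESeq2 0) and 2 in knockdown culture. All genes called at that fold numbered 919 short-term, 2620 long-term, 715 in nontarget culture and 2348 in knockdown culture. With only the groups compared, 7 listed genes were called long-term (3510 of all genes), 5 in nontarget culture (1284) and 2 in knockdown culture (2854). With no filter, 6 listed genes were called in nontarget culture (1281 of all genes) and 4 in knockdown culture (3970). DESeq2 called 6 listed genes in nontarget culture (1061 of all genes), and a mean of at least 10 CPM left 666 genes called there. Leaving out each library in turn gave 874 to 1258 genes and 1 to 4 listed genes short-term, and 3295 to 4190 and 5 to 9 long-term. It gave 581 to 906 and 1 to 4 in nontarget culture, and 2829 to 3870 and 2 to 7 in knockdown culture. For the interaction it gave 1463 to 2291 genes and 2 to 4 listed genes. Without the libraries numbered 3, chosen after seeing the data, 1586 genes and 8 listed genes were called in nontarget culture. In knockdown culture 4422 genes and 13 listed genes were called, and for the interaction 2341 genes and 6 listed genes. The cause of these shifts was not tested.

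With the replicate block, 17 listed genes were called long-term (5137 of all genes) and 15 in knockdown culture (4805). In both, same-numbered libraries deviated together, but so did some libraries of unlike number. Elsewhere same-number correlations were 0.0172, 0.111 and 0.0540 short-term and −0.0340, 0.0767 and 0.0250 in nontarget culture. The block gave 2359 genes short-term, 1786 genes and 8 listed genes in nontarget culture and 2879 genes for the interaction. It ended no call of a listed gene. RLE factors shifted all genes' median log2 fold change most for the interaction, by −0.00446. At these depths 40 of 42 genes could be tested, and small changes of genes such as CHAC1 may be missed.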
